A study of Homo sapiens with 12 samples.

Results

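The 10 genes described here encode cytosolic chaperones and co-chaperones whose transcription is known to be driven by HSF1, the heat shock transcription factor. They are HSPA1A, HSPA1B, HSPA8, HSPH1, BAG3, DNAJB1, DNAJA1, HSP90AA1, HSP90AB1 and HSPB1, taken by gene name from a table of 60987 rows, of which 60671 carry a gene name. All 10 have a row, and 9 of them had enough counts to be tested, since HSPA1A was at or near 0 in every library. RNA came from 4 groups of 3 samples of wild-type HCT116, an established line of human colorectal carcinoma cells. Deprived cells were washed and given DMEM with 0 mM cystine for 24 h or 48 h, and control cells stayed in full DMEM for 24 h or 48 h. All media held 10% fetal bovine serum and antibiotics. A wash and fresh medium are described for deprived cells alone, and their part in any difference cannot be told apart from that of cystine. Nothing in the labels says that the 3 samples per group were separate cultures, so a p-value here reflects only sample-to-sample spread, possibly technical.

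Chaperones of the HSP70 family bind short hydrophobic stretches of unfolded proteins and release them in a cycle driven by ATP. J-domain proteins bring clients to HSP70 and start the hydrolysis step, exchange factors open the cycle again, HSP90 takes over clients such as kinases and steroid receptors, and small heat shock proteins hold unfolded proteins without using ATP. In unstressed cells HSF1 is kept inactive by chaperones, and when unfolded proteins occupy these, HSF1 trimerises and binds heat shock elements, which are alternating repeats of GAA and TTC in the promoters of its targets.

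Promoter sequences are shown because heat shock elements are the feature that names the group. The 250 bases before each annotated start were taken from RefSeq (GRCh38.p14), where all 10 genes matched by symbol. The motif searched on both strands was GAA, TTC and GAA in this order, with NN between neighbouring units. An exact match was found for 3 of the 10 genes, HSPA8, HSP90AA1 and HSP90AB1, and for 0.557% of the 27305 genes in the same table. With at most 1 of the 9 fixed letters different, a rule chosen after the exact search was seen, 8 of the 10 genes had a match, against 6.54% of all genes. HSPH1 and BAG3 had none, which says only that these letters are not in those windows. DNAJB1, HSP90AA1 and HSP90AB1 have more than 1 annotated start, and the matches of each lay before only 1 of them. The motif TGATGNAA, bound by ATF4, was found for 0 of the 10 genes and for 3.89% of all genes. The motif TGACNNNGC, bound by NRF2, was found for 1 of the 10, in a window of HSP90AB1 without a heat shock element, and for 13.2% of all genes. A match is a description of the sequence and not evidence of binding.

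Sites of 29 bases follow, with the matched 13 bases in capitals, each on the strand of its gene. That of HSPA8 lies at chr11:123062171-123062199, of HSP90AA1 at chr14:102087112-102087140, of DNAJA1 at chr9:33025062-33025090, of HSPB1 at chr7:76302483-76302511 and of HSPA1A at chr6:31815429-31815457. HSPA8 and HSP90AA1 have exact matches and the others differ by 1 letter. The sites of HSPA8 and HSP90AA1 lie within annotated exons of the same gene, and that of DNAJA1 within annotated exons of APTX. Those of HSPB1 and HSPA1A lie outside exons.
HSPA8: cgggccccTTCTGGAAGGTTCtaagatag
HSP90AA1: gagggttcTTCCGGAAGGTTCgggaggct
DNAJA1: gaaaagggCTCCAGAAGATTCcacgagcg
HSPB1: taacgagaGAAGGTTCCAGATgagggctg
HSPA1A: aaaccctgGAATATTCCCGACctggcagc

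Longer stretches are shown for HSPA1B, DNAJB1 and HSP90AB1, which had the largest difference between times, the largest rise at 48 h and no call at 48 h, again with the matched bases in capitals. They are the parts of the upstream windows outside annotated exons. That of HSPA1B is chr6:31827488-31827734 on the plus strand, with a single match that differs from the site of HSPA1A only in the flanking letters. That of DNAJB1 is chr19:14518421-14518647 on the minus strand, with a pair of matches close to an annotated start inside the gene span given below. That of HSP90AB1 is chr6:44247693-44247865 on the plus strand, where overlapping matches run together.
HSPA1B: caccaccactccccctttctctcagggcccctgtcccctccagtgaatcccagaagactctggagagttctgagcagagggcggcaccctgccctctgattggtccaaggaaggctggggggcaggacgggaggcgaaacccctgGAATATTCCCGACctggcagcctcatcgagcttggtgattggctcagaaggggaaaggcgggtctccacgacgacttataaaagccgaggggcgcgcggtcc
DNAJB1: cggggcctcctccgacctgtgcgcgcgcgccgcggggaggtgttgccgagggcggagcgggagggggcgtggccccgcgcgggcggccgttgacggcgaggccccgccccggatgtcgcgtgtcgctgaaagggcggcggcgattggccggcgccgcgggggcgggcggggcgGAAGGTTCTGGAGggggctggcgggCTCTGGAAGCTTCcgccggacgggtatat
HSP90AB1: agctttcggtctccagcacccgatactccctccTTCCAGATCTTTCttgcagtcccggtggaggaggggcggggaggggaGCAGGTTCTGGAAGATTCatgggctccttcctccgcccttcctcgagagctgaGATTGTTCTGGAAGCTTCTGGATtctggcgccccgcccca

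Library totals lay between 19146108 and 24179533 estimated counts, and 16994 genes were tested. Of the 7 epithelial markers that fit the label of the line, 6 were abundant in every library, such as EPCAM at 251 to 323 CPM (counts scaled to a common library size) and KRT8 at 1728 to 2496 CPM, while VIL1 had 0.471 to 2.00 CPM. The 7 summed to 5458 to 5588 CPM in deprived cells at 24 h, against 3855 to 4269 CPM in control cells, and to 5138 to 5679 CPM in deprived cells at 48 h, against 4203 to 4618 CPM in control cells. Of the leukocyte markers reported, PTPRC and CD3E were at 0 in all 12 libraries, while CD68 was detected in every library. CD68 had 10.6 to 11.7 CPM in deprived cells at 24 h, against at most 4.93 CPM in control cells, and 22.4 to 26.6 CPM in deprived cells at 48 h, against 9.64 to 10.4 CPM in control cells. Of 4 fibroblast markers, COL1A1 had 15.1 to 48.3 CPM and the others at most 0.396 CPM. The fibroblast sum was lower in deprived cells, at 15.5 to 19.5 CPM against 31.1 to 33.4 CPM in control cells at 24 h and 19.3 to 22.0 CPM against 43.5 to 48.7 CPM in control cells at 48 h. The part of these markers in the results was not tested.

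Deprived replicate 1 at 48 h differed from replicates 2 and 3 by chi-square values of 6.60 and 7.86 per degree of freedom. The value between replicates 2 and 3 was 2.96. Control replicate 1 at 48 h differed from replicates 2 and 3 by 7.36 and 6.45, against 5.01 between those 2. Deprived replicate 1 at 48 h had the lowest CPM of its group for all 9 tested chaperones. Results at 48 h are therefore also given without it. Leaving out control replicate 1 at 48 h changed no call and no direction among the 9.

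The summed counts of the 10 chaperone genes were lower in deprived cells at 24 h and higher in deprived cells at 48 h. They made up 0.588%, 0.566% and 0.591% of all counts in deprived cells at 24 h, against 0.914%, 0.937% and 0.921% in control cells at 24 h. At 48 h they held 0.916%, 0.999% and 1.03% in deprived cells, against 0.697%, 0.696% and 0.716% in control cells. The groups did not overlap at either time, and the direction turned between them. Abundant genes weigh most in these sums. At 24 h HSP90AA1 averaged 1678 CPM in deprived cells and 3169 CPM in control cells, and HSP90AB1 2289 CPM in deprived cells and 3553 CPM in control cells. At 48 h HSPA8 averaged 2776 CPM in deprived cells and 1020 CPM in control cells. Single genes went against the sum, since DNAJB1 rose at 24 h, and at 48 h HSPB1 fell and HSP90AB1 was not called. These are shares of a bulk RNA pool, in which fewer cells making a transcript and less of it per cell cannot be told apart.

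Gene by gene, 7 of the 9 tested chaperones changed at 24 h by edgeR's quasi-likelihood test (adjusted p under 0.05 over all tested genes), with 1 higher and 6 lower. Of all tested genes at 24 h, 55.6% were called, 28.8% higher and 26.9% lower. The median log2 fold change was -0.47 over the 9 chaperones and -0.01 over all tested genes. At 48 h, 8 of 9 changed, with 7 higher and 1 lower, where 68.3% of all tested genes were called, 33.5% higher and 34.9% lower. The median at 48 h was 0.62 over the 9 chaperones and -0.02 over all tested genes. In the test of the difference between the effects at the 2 times, all 9 tested chaperones had a higher effect at 48 h than at 24 h, where 35.6% of tested genes were called, 16.4% with a higher effect at 48 h. HSPA1A was outside these counts.

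**Figure D1:**
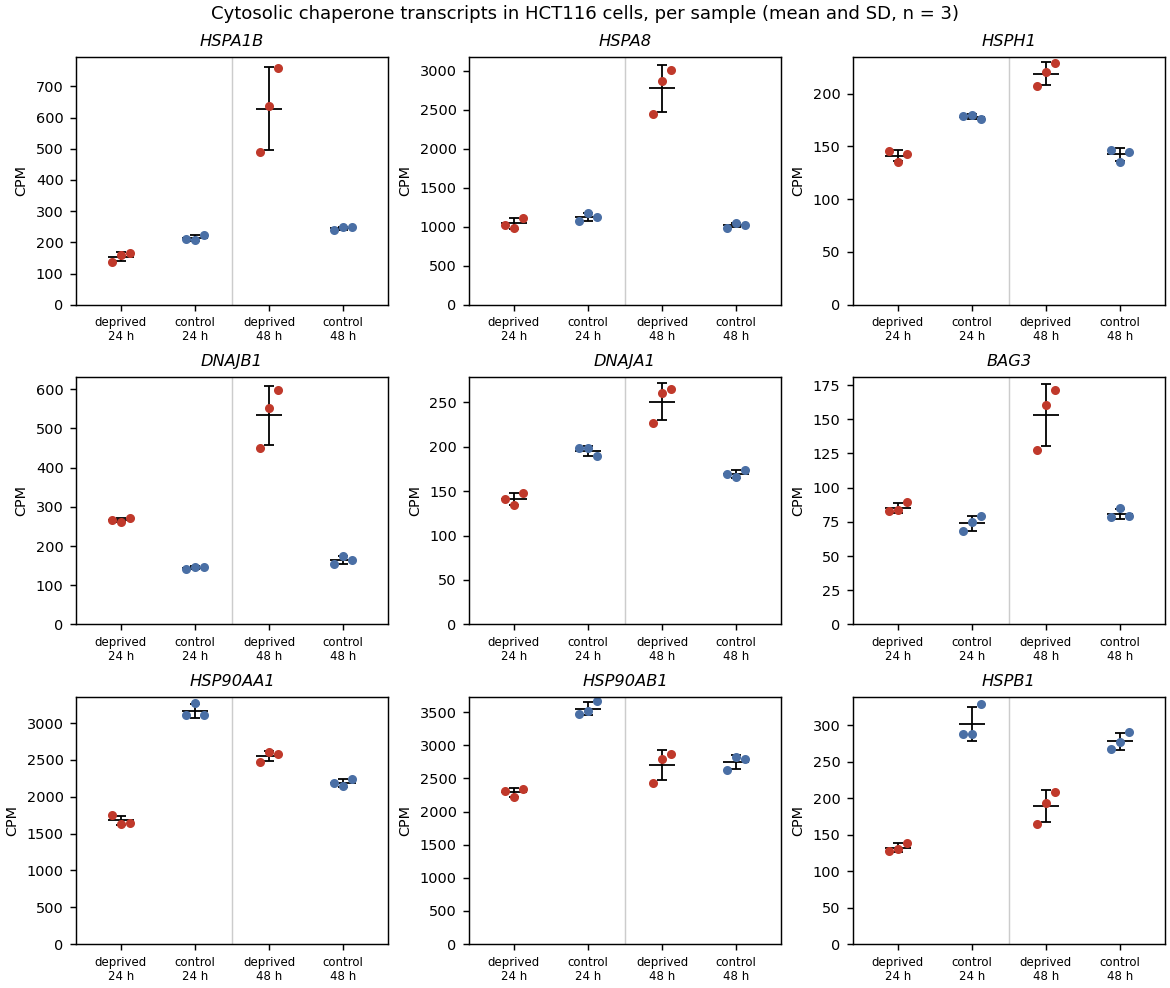
CPM of the 9 tested chaperone genes in each sample (points), with the mean and SD of each group of 3 (black bars), for deprived cells (red) and control cells (blue) at each time, on linear axes from 0. For HSPA8 the deprived samples at 48 h sit between 2443 and 3013 CPM, above all other samples, while for HSP90AA1 the control samples at 24 h sit highest, between 3112 and 3278 CPM.

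The HSP70 genes HSPA1A and HSPA1B (chromosome 6, 31815464 to 31817946 and 31827735 to 31830255, GRCh38) are intronless neighbours that encode the stress-inducible HSP70. Of the 2384 windows of 100 bases in the longest HSPA1A transcript, 69.9% occur unchanged in that of HSPA1B, so reads cannot always be given to either. Nearly all counts of the pair stand in the HSPA1B row. HSPA1A had 5.27, 0 and 9.78 estimated counts in deprived cells at 24 h and 0, 0 and 0 in control cells at 24 h. At 48 h it had 0 in each deprived sample, against 0, 0 and 3.66 in control cells. How shared reads were divided was not tested, so the HSPA1B row may hold reads of both copies.

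HSPA1B had 138, 158 and 165 CPM in deprived cells at 24 h, against 209, 207 and 224 CPM in control cells. All 3 deprived samples lay below all 3 controls, and HSPA1B fell by 0.48 ± 0.105 on the log2 scale (SE; adjusted p = 0.000772). After 48 h, it had 491, 638 and 758 CPM in deprived cells, against 238, 248 and 248 CPM in control cells. It rose 2.57-fold (log2 1.36 ± 0.10), and the deprived samples spread much more widely than the controls. The effect at 48 h exceeded that at 24 h by 1.84 ± 0.15, the largest such difference among the 9 chaperones, and only 0.765% of tested genes reached it. Summing the copies to one row gave log2 fold changes of -0.47 at 24 h and 1.36 at 48 h. A processed transcript on the same strand, AL671762.1, shares exon bases with HSPA1B and had 123 to 229 estimated counts in deprived cells at 24 h, against 92.0 to 264 in control cells, where the groups overlapped. It had 595 to 871 in deprived cells at 48 h, against 222 to 353 in control cells.

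HSPA8 (chromosome 11, 123057489 to 123063230) encodes HSC70, the constitutive cytosolic HSP70 that also serves clathrin uncoating and chaperone-mediated autophagy. It had 1028, 986 and 1113 CPM in deprived cells at 24 h, against 1069, 1172 and 1120 CPM in control cells. The groups overlapped and HSPA8 was not called (log2 -0.10 ± 0.07, adjusted p = 0.191). With upper-quartile scaling or library totals it was called lower, by 0.18 on the log2 scale in both. At 48 h it had 2443, 2872 and 3013 CPM in deprived cells, against 990, 1044 and 1026 CPM in control cells. All deprived samples lay far above the controls, and HSPA8 rose 2.72-fold (log2 1.45 ± 0.07, adjusted p = 5.2e-13). The difference between the effects at 48 h and 24 h was 1.55 ± 0.09.

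HSPH1 and BAG3 encode partners that open the HSP70 cycle. HSPH1 (chromosome 13, 31134974 to 31162388) encodes HSP110, an exchange factor that also helps HSP70 to dissolve aggregates. It had 146, 135 and 143 CPM in deprived cells at 24 h, against 179, 180 and 176 CPM in control cells, and fell by 0.34 ± 0.05 on the log2 scale. The 48 h samples had 207, 221 and 229 CPM in deprived cells, against 147, 136 and 145 CPM in control cells, and HSPH1 rose 1.54-fold. Neither pair of groups overlapped, so HSPH1 was lower at the first time and higher at the second, with a difference of 0.96 ± 0.07 between the effects.

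BAG3 (chromosome 10, 119651370 to 119677819) encodes an exchange factor that links HSP70 to small heat shock proteins and to selective autophagy. It had 82.9, 83.3 and 89.7 CPM in deprived cells at 24 h, against 68.0, 75.1 and 79.0 CPM in control cells. It was not called (log2 0.20 ± 0.09, adjusted p = 0.0507) although the groups did not overlap. This call depended on the setting, since 7 of 21 alternatives called it higher, among them DESeq2 (adjusted p = 0.046) and the fits without control replicate 3 at 24 h (adjusted p = 0.0363), without deprived replicate 1 at 48 h (adjusted p = 0.00673) or without deprived replicate 3 at 48 h (adjusted p = 0.0303). At 48 h it had 127, 160 and 171 CPM in deprived cells, against 78.4, 84.8 and 79.2 CPM in control cells. BAG3 rose 1.89-fold at 48 h (log2 0.92 ± 0.08), and the effects differed by 0.71 ± 0.12.

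Of the J-domain genes, DNAJB1 rose and DNAJA1 fell at 24 h, and both rose at 48 h. DNAJB1 (chromosome 19, 14514770 to 14529770) encodes the main stress-inducible HSP40 and is also known to return HSF1 to its inactive state. It had 266, 260 and 272 CPM in deprived cells at 24 h, against 141, 147 and 147 CPM in control cells. It was the only chaperone of the 9 called higher at 24 h, by 1.83-fold (log2 0.87 ± 0.08, adjusted p = 1.38e-08). Its values at 48 h were 450, 552 and 597 CPM in deprived cells, against 155, 175 and 164 CPM in control cells. The rise of 3.24-fold (log2 1.70 ± 0.08) was the largest of the 9 at 48 h, and 2.93% of tested genes reached it. The effects at the 2 times differed by 0.82 ± 0.11. TECR, on the opposite strand, shares exon bases with DNAJB1 and had 1414 to 1497 estimated counts in deprived cells at 48 h, against 3054 to 3283 in control cells, so it was the lower where DNAJB1 was the higher. Use of strand in the counting is not stated.

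DNAJA1 (chromosome 9, 33025211 to 33039907) encodes an HSP40 of the other main class, which works with HSC70 in folding and mitochondrial import. It had 142, 134 and 148 CPM in deprived cells at 24 h, against 199, 199 and 189 CPM in control cells, and fell by 0.47 ± 0.06 on the log2 scale. At 48 h it had 227, 260 and 265 CPM in deprived cells, against 169, 165 and 174 CPM in control cells, and rose 1.48-fold. The groups did not overlap at either time, and the effects differed by 1.03 ± 0.08. The ratio of DNAJB1 to DNAJA1 counts, which does not depend on the scaling of libraries, averaged 1.88 ± 0.05 in deprived cells at 24 h and 0.741 ± 0.034 in control cells (SD, n = 3 each). At 48 h it averaged 2.12 ± 0.13 in deprived cells and 0.971 ± 0.073 in control cells.

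The HSP90 genes were the most abundant in control cells and fell together at 24 h. HSP90AA1 (chromosome 14, 102080738 to 102139699) encodes the inducible HSP90 alpha. It had 1755, 1637 and 1643 CPM in deprived cells at 24 h, against 3116, 3278 and 3112 CPM in control cells, and fell by 0.92 ± 0.05 on the log2 scale (adjusted p = 5.43e-12). After 48 h, it had 2470, 2608 and 2577 CPM in deprived cells, against 2183, 2141 and 2237 CPM in control cells, and rose 1.17-fold (adjusted p = 0.000248). Deprived samples were thus lowest at 24 h and modestly above the controls at 48 h, and the effects differed by 1.14 ± 0.06. Control cells averaged 3169 CPM at 24 h and 2187 CPM at 48 h, and deprived cells 2552 CPM at 48 h. The rise at 48 h is thus against controls that were themselves lower than at 24 h. WDR20, on the opposite strand, shares exon bases with HSP90AA1 and had 431 to 572 estimated counts over all 12 libraries.

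HSP90AB1 (chromosome 6, 44246166 to 44253888) encodes the constitutive HSP90 beta. It had 2309, 2214 and 2343 CPM in deprived cells at 24 h, against 3475, 3522 and 3662 CPM in control cells, and fell by 0.63 ± 0.06 on the log2 scale. At 48 h it had 2437, 2796 and 2872 CPM in deprived cells, against 2623, 2815 and 2791 CPM in control cells. The groups overlapped and it was not called (log2 -0.02 ± 0.06, adjusted p = 0.739), with a value of 0.05 without deprived replicate 1 and of 0.00011 without control replicate 2. Its effects at the 2 times differed by 0.61 ± 0.08. The ratio of HSP90AA1 to HSP90AB1 counts averaged 0.734 ± 0.030 in deprived cells at 24 h and 0.892 ± 0.041 in control cells (SD, n = 3 each). The average at 48 h was 0.948 ± 0.060 in deprived cells and 0.798 ± 0.036 in control cells, so alpha was the lower in proportion at 24 h and the higher at 48 h.

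HSPB1 (chromosome 7, 76302544 to 76304295) encodes HSP27, a small heat shock protein that forms large oligomers and also stabilises actin filaments. It had 128, 130 and 139 CPM in deprived cells at 24 h, against 288, 288 and 329 CPM in control cells. All deprived samples lay far below the controls, and HSPB1 fell by 1.19 ± 0.07 on the log2 scale (adjusted p = 1.27e-10), the largest fall of the 9. The 48 h samples had 165, 194 and 209 CPM in deprived cells, against 267, 277 and 290 CPM in control cells. HSPB1 fell by 0.55 ± 0.07 on the log2 scale at 48 h and was the only chaperone of the 9 called lower at that time. Its effect still differed between the times by 0.63 ± 0.10 (adjusted p = 9.12e-05), and 72.9% of tested genes had a fold change at least as high at 48 h, against 95.0% at 24 h.

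**Figure D2:**
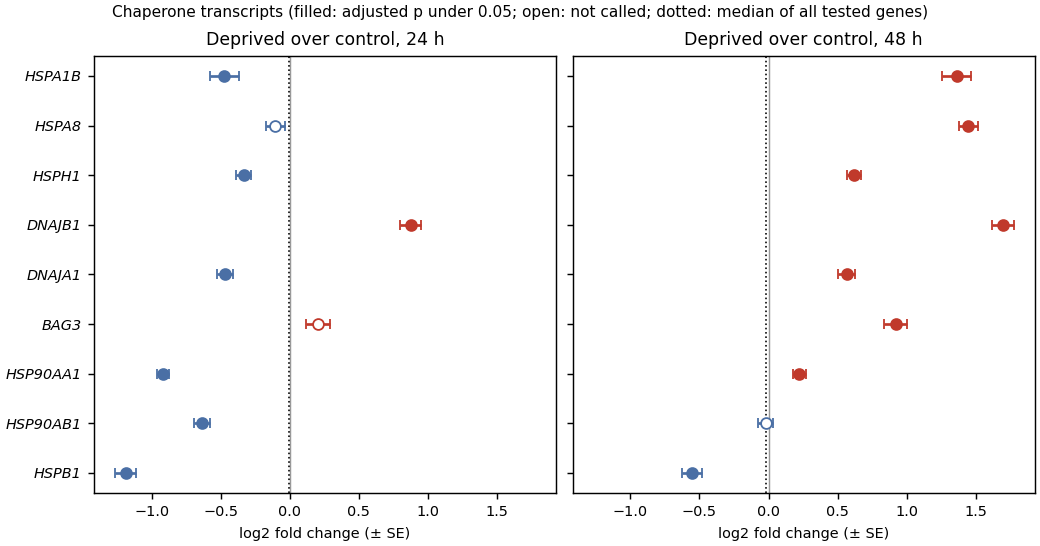
Log2 fold change of deprived over control cells with its SE for the 9 tested chaperone genes at 24 h (left) and 48 h (right), from the fit of all 12 samples, in red above 0 and blue below, filled where called. At 24 h 6 filled points lie below 0 and DNAJB1 alone lies above it among the filled points. At 48 h 7 filled points lie above 0 and HSPB1 alone lies below it among the filled points.

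Deprived and control cells can also each be compared over time. In deprived cells, all 9 tested chaperones were higher at 48 h than at 24 h, in a comparison where 42.5% of tested genes were called, 20.7% higher. The log2 differences in deprived cells ran from 0.24 ± 0.06 for HSP90AB1 to 2.04 ± 0.11 for HSPA1B, whose fold was 4.1, with a median of 0.83. In control cells, 4 of 9 were called lower at 48 h than at 24 h and 0 higher, where 23% of tested genes were called, 12.7% higher and 10.4% lower. Over all tested genes this was 2151 higher and 1760 lower, and with library totals in place of TMM scaling 1697 higher and 2579 lower. The 4 were HSPH1, DNAJA1, HSP90AA1 and HSP90AB1, with log2 values of -0.32 ± 0.05, -0.21 ± 0.06, -0.53 ± 0.05 and -0.37 ± 0.06. The difference between the effects of deprivation at the 2 times therefore holds a change in control cells for these genes. Without deprived replicate 1 at 48 h the count in control cells was 7, with 2 higher and 5 lower. More of all tested genes were also called in that fit, 2329 higher and 2027 lower of 17397. DNAJA1 was not called without control replicate 1 or 2 at 24 h or control replicate 2 at 48 h (adjusted p = 0.055, 0.0556 and 0.0578).

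Leaving out deprived replicate 1 at 48 h did not change the counts of the other comparisons at 48 h. At 48 h 8 of 9 were called, where 5569 of 17397 tested genes were called higher and 5802 lower. The log2 fold changes of HSPA1B, HSPA8 and DNAJB1 became 1.52, 1.53 and 1.81. All 9 had a higher effect at 48 h than at 24 h, where 2814 of all tested genes were called higher and 3218 lower. The sample left out had the lowest CPM of its group for all 9, so its removal raises the group mean. These repeats are therefore not separate support.

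**Figure D3:**
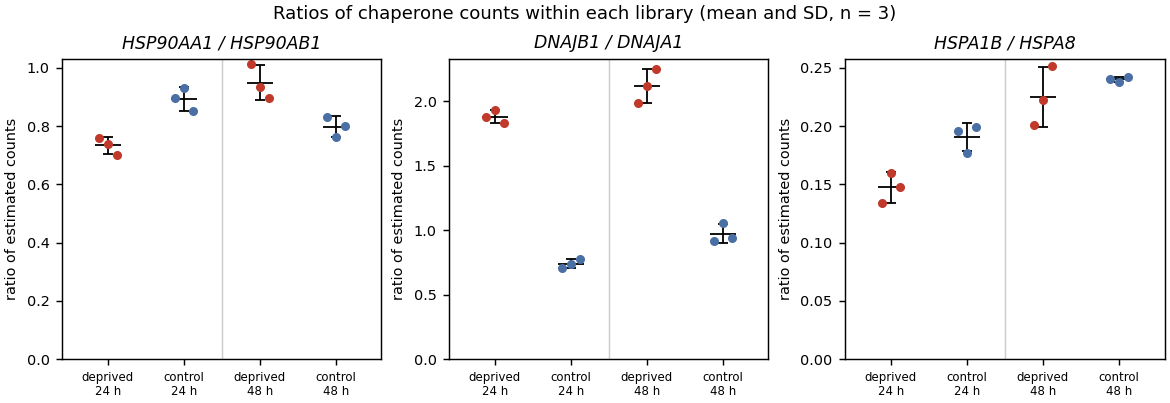
Ratio of estimated counts of HSP90AA1 to HSP90AB1, DNAJB1 to DNAJA1 and HSPA1B to HSPA8 within each library (points), with mean and SD of each group of 3, for deprived (red) and control (blue) cells. The DNAJB1 to DNAJA1 ratio is 1.83 to 2.25 in the deprived samples and 0.709 to 1.06 in the controls.

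Ratios within a library need no scaling between libraries. With 3 samples against 3, the exact two-sided permutation test of a log2 ratio cannot give less than 0.1, and it gave 0.1 for the DNAJB1 to DNAJA1 and the HSP90AA1 to HSP90AB1 ratio at both times, whose groups did not overlap. HSPA1B relative to HSPA8 averaged 0.147 ± 0.013 in deprived cells at 24 h and 0.191 ± 0.012 in control cells. At 48 h that ratio averaged 0.225 ± 0.025 in deprived cells and 0.240 ± 0.002 in control cells, where the groups overlapped (exact permutation p = 0.4). BAG3 relative to HSPA8 was 0.082 ± 0.002 in deprived cells at 24 h and 0.066 ± 0.004 in control cells. Its ratio at 48 h was 0.055 ± 0.002 in deprived cells and 0.079 ± 0.002 in control cells. The BAG3 groups did not overlap at either time, with BAG3 the higher in proportion in deprived cells at 24 h and the lower at 48 h.

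Levels of different genes are compared here as TPM, which divides counts by the gene lengths in the table. In control cells at 24 h the order was HSP90AB1 with 2643 ± 31, HSP90AA1 with 1796 ± 61, HSPA8 with 967 ± 38, HSPB1 with 743 ± 47 and then HSPA1B, DNAJA1, DNAJB1, HSPH1 and BAG3, the last with 57.5 ± 3.3 TPM (SD, n = 3). HSPA1B and DNAJA1 did not differ beyond their spread, at 169 ± 5 and 168 ± 8 TPM. In deprived cells at 48 h HSPA8 came first with 2329 ± 162 TPM, its 3 samples at 2157 to 2478 TPM, and HSP90AB1 followed with 1956 ± 92 TPM, at 1856 to 2037 TPM. HSPA1B reached 482 ± 87 and DNAJB1 459 ± 48 TPM, which overlapped each other and the 454 ± 37 TPM of HSPB1. In deprived cells at 24 h HSP90AA1 and HSPA8 were close, with 924 ± 37 and 873 ± 44 TPM, and HSPA1B and DNAJA1 both averaged 118 TPM. Among all named genes, HSPA8 ranked 45 by mean TPM in deprived cells at 48 h and 146 in control cells at 48 h.

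Profiles over the 12 samples were compared by the root mean square difference of mean-centred log2 CPM, as a description. Among the 9 chaperones the closest pair was HSPH1 and DNAJA1 with 0.10, followed by HSP90AA1 with HSP90AB1 at 0.15 and HSPA8 with BAG3 at 0.24. The most distant pair was DNAJB1 and HSPB1 with 1.10. Among 11188 other genes whose mean reached 5 CPM, CHPF2 was nearest to HSPA8 with 0.05, and had 23.0 CPM in deprived cells at 24 h and 23.8 CPM in control cells at 24 h. CHPF2 had 60.6 CPM in deprived cells at 48 h and 21.8 CPM in control cells at 48 h. LAMA3 and MTX1P1 came next to HSPA8 with 0.12 and 0.14. RHOF, KCTD15 and ITPRIP were nearest to DNAJB1 with 0.09, 0.10 and 0.13. CPTP, WIPI1 and OCIAD2 were nearest to BAG3 with 0.10, 0.11 and 0.11, and PRAME, MYORG and SH2B1 to HSPB1 with 0.12, 0.12 and 0.14.

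Other genes of the chaperone network were counted in lists, of which 13 of 107 genes stand in more than 1, with genes called by the same fit. Each count below stands against 28.8% of all tested genes higher and 26.9% lower at 24 h, and 33.5% higher and 34.9% lower at 48 h. HSF1 itself had 121 ± 9.3 CPM in deprived cells at 24 h and 98.7 ± 6.9 CPM in control cells. It had 144 ± 0.57 CPM in deprived cells at 48 h and 104 ± 5.2 CPM in control cells, with log2 fold changes of 0.30 ± 0.06 and 0.47 ± 0.06, both called. HSF2, a related factor, fell by 0.18 ± 0.07 at 24 h and by 0.61 ± 0.07 at 48 h on the log2 scale. Of the 11 tested heat shock factors and their regulators, 3 rose and 2 fell at 24 h, and 3 rose and 4 fell at 48 h. HSBP1, which binds the trimer region of HSF1, fell by 0.81 ± 0.05 and 0.70 ± 0.05. AKAP12, a scaffold of protein kinase A that is included in these counts, rose by 0.41 ± 0.05 at 24 h and fell by 0.48 ± 0.05 at 48 h. Its part in the control of HSF1 was not tested.

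HSP90 co-chaperones, which set the pace and the clients of HSP90, were also counted at both times. At 24 h 2 of the 16 tested rose and 9 fell, with a median log2 fold change of -0.28, and at 48 h 9 rose and 5 fell, with a median of 0.33. AHSA1, which stimulates the HSP90 ATPase, fell by 0.25 ± 0.06 at 24 h and rose by 0.75 ± 0.06 at 48 h, and CHORDC1 fell by 0.33 ± 0.06 and then rose by 0.56 ± 0.06. NUDC, a co-chaperone named for nuclear distribution, rose by 0.63 ± 0.06 at 48 h. FKBP5, an immunophilin of steroid receptor complexes, fell by 0.66 ± 0.05 at 24 h and fell by 1.95 ± 0.05 at 48 h.

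Other genes induced by heat shock showed 5 of 22 tested higher and 12 lower at 24 h, and 13 higher and 5 lower at 48 h, with medians of -0.28 and 0.56. Among them are STIP1, AHSA1, CHORDC1, FKBP4 and CACYBP, which also stand in the list of HSP90 co-chaperones. SQSTM1, an autophagy receptor, rose by 1.48 ± 0.06 and 2.49 ± 0.06 at the 2 times, and ATF3, a stress transcription factor, by 2.10 ± 0.07 and 2.39 ± 0.07. SERPINH1, the collagen chaperone HSP47, rose by 0.59 ± 0.06 and 1.31 ± 0.06, while IER5L fell by 0.31 ± 0.07 and 1.73 ± 0.07. SQSTM1 and ATF3 are also known targets of NRF2 and ATF4, so that list is not specific to HSF1. Of 6 genes listed as small heat shock protein genes other than HSPB1, 2 had enough counts. HSPB8, the partner of BAG3, fell by 1.37 ± 0.20 at 24 h and rose by 0.76 ± 0.18 at 48 h, at low levels of 1.90 ± 0.22 and 6.45 ± 1.5 CPM in deprived cells at 24 h and 48 h, against 4.90 ± 0.37 and 3.80 ± 0.27 CPM in control cells. HSPB11, counted in this list by its symbol alone, fell by 0.24 ± 0.08 and 0.31 ± 0.08.

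Among 12 other J-domain genes, 5 rose and 2 fell at 24 h, and 9 rose and 1 fell at 48 h, with medians of 0.09 and 0.48. They were listed as cytosolic without a check of where each protein is found in the cell. Over all tested genes, 28.8% were higher and 26.9% lower at 24 h. DNAJA4 rose by 1.10 ± 0.06 at 48 h, DNAJB2 by 0.85 ± 0.07, DNAJC2 by 0.83 ± 0.07 and DNAJC9 by 0.76 ± 0.06. Of the 7 tested other HSP70 and HSP110 genes, 3 rose and 3 fell at 24 h, and 3 rose and 1 fell at 48 h. HSPA13 rose by 1.42 ± 0.07 at 48 h, HSPA4 by 0.70 ± 0.05 and HSPA12A by 0.17 ± 0.05, and HSPA2 fell by 2.38 ± 0.31. Of 8 exchange factors and regulators of HSP70, 2 rose and 1 fell at 24 h, and 4 rose and 1 fell at 48 h, among them BAG5, BAG1, BAG2 and HSPBP1, which rose at 48 h by 0.61 ± 0.05, 0.68 ± 0.07, 0.46 ± 0.07 and 0.37 ± 0.06.

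The TRiC chaperonin and prefoldin, which fold actin and tubulin, had 4 of 14 genes higher and 4 lower at 24 h, and 8 higher and 3 lower at 48 h. Both shares at 24 h were close to those of all tested genes, 28.8% higher and 26.9% lower. PFDN2 rose by 1.73 ± 0.07 and 1.68 ± 0.07 at the 2 times and CCT6A by 0.21 ± 0.05 and 0.58 ± 0.05, while CCT8 fell by 0.90 ± 0.05 and 0.93 ± 0.05 and PFDN5 by 0.43 ± 0.07 and 0.73 ± 0.07. Of 20 tested genes listed as chaperones of the endoplasmic reticulum and mitochondria, 13 rose and 3 fell at 24 h. At 48 h 13 rose and 3 fell, and the medians at the 2 times were 0.48 and 0.58. LONP1 and CLPP, which are counted in this list, are proteases. HSPA5, the HSP70 of the endoplasmic reticulum, rose by 2.22 ± 0.05 and 2.04 ± 0.05, and HSPA9, that of mitochondria, by 1.12 ± 0.05 and 1.20 ± 0.05. HYOU1 rose by 1.64 ± 0.05 and 1.87 ± 0.05 and DNAJB9 by 1.68 ± 0.07 and 1.90 ± 0.07.

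**Figure D4:**
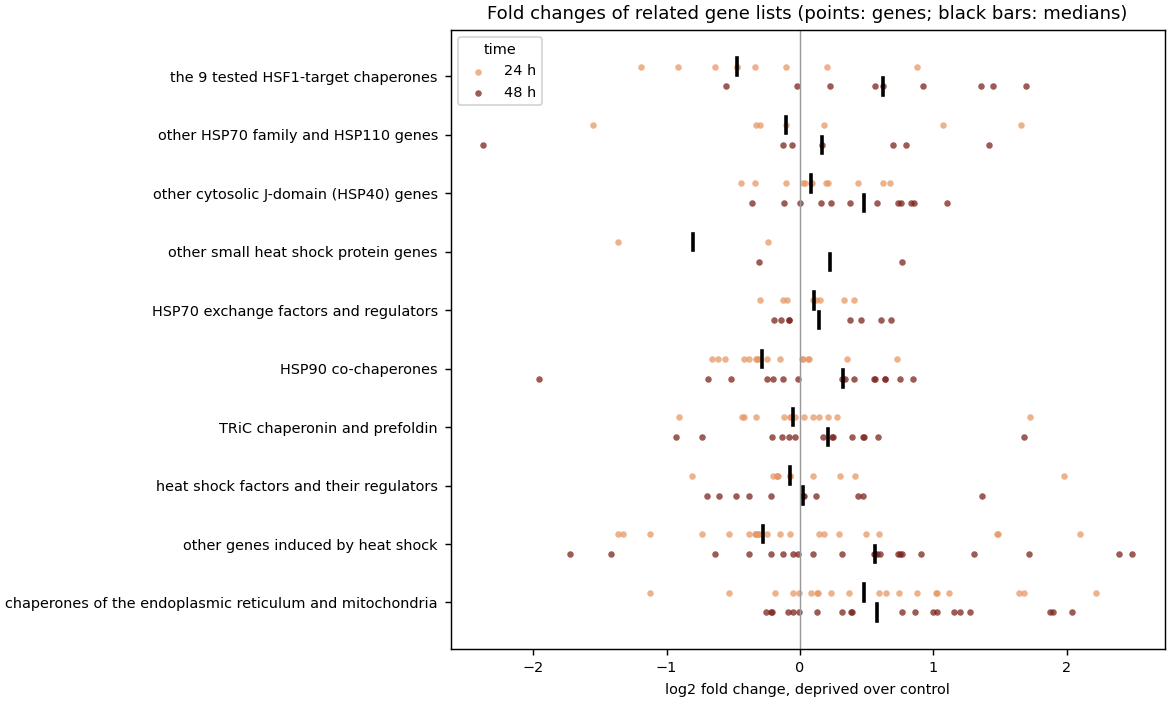
Log2 fold change of deprived over control cells at 24 h (light) and 48 h (dark) for each tested gene (points) of the 9 chaperones and of 9 related lists, with medians as black bars. The median is -0.28 at 24 h and 0.33 at 48 h for HSP90 co-chaperones and -0.28 and 0.56 for other genes induced by heat shock. These lists are not separate, since both hold STIP1, AHSA1, CHORDC1, FKBP4 and CACYBP. The median is above 0 at both times, at 0.48 and 0.58, for genes listed as chaperones of the endoplasmic reticulum and mitochondria.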

How the data were processed

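RNA-seq of 12 samples was analysed from 1 table of estimated counts per gene, which the authors deposited. Per the submitters' processing notes, fastp, HISAT, RSEM and the GRCh38 build were used; versions, the annotation release and strandedness are not given in the sources used here. Estimated counts were rounded, 316 rows without a gene name (0.748% to 1.65% of counts) were left out, and filterByExpr (minimum count 10) kept 16994 genes. One edgeR 4.0.16 quasi-likelihood fit (R 4.3.3, TMM scaling, 4 groups, all 12 samples, 8 residual degrees of freedom) gave 5 contrasts. Benjamini-Hochberg adjustment ran over all tested genes, with a threshold of 0.05. CPM used TMM-scaled totals. TPM was computed from the counts and the lengths in the table. Library totals were 19146108 to 24179533 counts, and the biological coefficient of variation was 6.4%. The fit was tested on simulated data in which only a small share of genes changed. It recovered larger changes more often than small ones, and the share of false calls at 48 h was above the threshold set. In these data 55.6% of tested genes were called at 24 h and 68.3% at 48 h, a setting that was not simulated.

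Gene positions come from GENCODE (GRCh38). Rows of processed pseudogenes held at most 0.141% of the counts of their parent gene. The members and lists were chosen with earlier results of these data known. All members are named. From each list the text names up to 4 called genes with the smallest adjusted p at 48 h, plus HSF1 and HSF2, and for 4 members the 3 genes with the nearest profile. Alternatives were RLE, upper-quartile and library-total scaling, DESeq2 1.42.0, no filter, a mean of at least 5 CPM, a replicate block, summed HSPA1 copies, only the compared groups, and leaving out each sample.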

Additional observations from a re-analysis of the deposited data

Results flagged for a closer look

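For all 9 tested chaperones, the effect of deprivation at 48 h differed from that at 24 h by a test of the difference itself (edgeR's interaction contrast, 3 samples in each of 4 groups), which called 35.6% of all tested genes. For HSPA1B the effect at 48 h minus that at 24 h was 1.84 ± 0.15 on the log2 scale (SE, adjusted p = 1.34e-08). HSPA8 followed with 1.55 ± 0.09, HSP90AA1 with 1.14 ± 0.06 and DNAJA1 with 1.03 ± 0.08. HSPH1 had 0.96 ± 0.07 and DNAJB1 0.82 ± 0.11. BAG3 had 0.71 ± 0.12, HSPB1 0.63 ± 0.10 and HSP90AB1 0.61 ± 0.08, the smallest of the 9. HSPA1B, HSPH1, DNAJA1 and HSP90AA1 were called lower at 24 h and higher at 48 h. DNAJB1 was called higher, and HSPB1 lower, at both times.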

How the results depend on the processing

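Of 940 alternative values for 45 log2 fold changes of the 9 tested chaperones, 916 kept their direction and call, 19 became called, 3 lost the call and 2 changed sign. Both sign changes were of HSP90AB1 at 48 h, which was not called: 0.051 without deprived replicate 1 and 0.00011 without control replicate 2, in a range of -0.065 to 0.051 over the fits that left out 1 sample. The count called was 7 to 9 at 24 h and 8 at 48 h under every alternative run. It was 9, all higher, for the difference between effects and for deprived cells over time. With no filter it was 10 in both, with 9 higher and 1 lower, the latter HSPA1A. HSPA1A was tested only with no filter, had at most 9.78 estimated counts, and is also among the 9 called at 24 h in that setting. For control cells over time it was 4, with 3 to 7 when 1 sample was left out and 4 to 6 under the other alternatives. The 6 called with no filter, and those with only the compared groups, held 2 higher. Deviations of same-numbered deprived and control samples correlated by -0.01 to 0.02 at 24 h and by -0.005 to 0.095 at 48 h. Samples of 24 h were not compared with those of 48 h, so pairing by replicate number was not settled. With a replicate block, 4998 genes were called higher and 4633 lower at 24 h, against 4886 and 4565 in the main fit. The fit with the replicate block kept 43 of 45 calls, and called BAG3 at 24 h (0.21, adjusted p = 0.0134) and DNAJB1 in control cells over time (0.18, adjusted p = 0.0452) as higher. Its counts of chaperones called were 8, 8, 9, 9 and 5 over the 5 contrasts. No scaling moved the median of all genes by over 0.1. The causes of these changes were not tested. Groups of 3 limit the precision, counts are relative to the library, and reads shared by HSPA1A and HSPA1B cannot be told apart.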
